A study of Mus musculus with 4 samples.

Results

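Mast cells sorted from the small intestine of mice were compared with mast cells grown from bone marrow and treated with TGF-beta1, a cytokine used to bring cultured mast cells towards the mucosal type. The comparison was the intestinal array minus the TGF-beta1 array, 2 of the 4 arrays of the series, over genes whose probe sets carried a single gene symbol. It asked what the TGF-beta1 culture still lacks of the tissue cell. Every cell came from BALB/c mice. The cultured cells, bone marrow-derived mast cells (BMMCs), had spent 3 to 4 weeks in interleukin-3 and stem cell factor, at 10 ng/ml each, and then 6 days with TGF-beta1 at 5 ng/ml. The tissue cells were taken from the lamina propria of naïve mice and sorted for FcεRI and c-Kit, so the levels of Fcer1a and Kit were set in part by the gate. No selection step is named for the TGF-beta1 culture. The other arrays, used here as side values, held BMMCs kept for 6 days in plain medium (control) and BMMCs kept for 6 days on Chinese hamster ovary cells that carried the Notch ligand Dll1 and then selected with c-Kit beads. The labels give neither the age of the mice nor how many were pooled.

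Mast cells store serine proteases, histamine and proteoglycan in granules and release them when IgE bound to the receptor FcεRI is cross-linked. In mice, mucosal mast cells of the gut are known for the chymases Mcpt1 and Mcpt2 and the integrin chain Itgae, and connective tissue mast cells for the chymases Mcpt4 and Cma1, the tryptases and receptors of the Mrgpr family. TGF-beta signals through SMAD proteins and induces Mcpt1 and Itgae in cultured mast cells, while Notch receptors, once bound by a ligand, switch on genes of the Hes and Hey families.

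Values are log2 levels of 1 array each, so no difference here has a replicate check and none carries a p-value. A gene counted as above background where its level passed a limit set from 1438 probe sets for receptors of smell, pheromones and taste, at their 95th percentile, which was 5.21 on the TGF-beta1 array and 5.11 on the intestinal array. A difference was called where it was at least 2-fold with any level under the limit raised to it, and a gene above the limit on 1 array alone has a fold printed as "at least". Of 22180 genes, 10841 were above the limit on both arrays, 1293 on the intestinal array alone and 410 on the TGF-beta1 array alone. Of the 12544 genes tested, 509 were higher in intestinal cells (4.06%) and 572 were lower (4.56%), and 68 and 36 of them differed at least 8-fold. The median difference over all genes tested was 0.00. Counts of list members below stand beside the shares of 4.06% and 4.56%, and a count near them says nothing particular about its list. As a gauge of technical spread, the differences given by separate probe sets of 1 gene had an SD of 0.43 (log2, 376 genes). It covers no variation between animals or cultures.

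**Figure D1:**
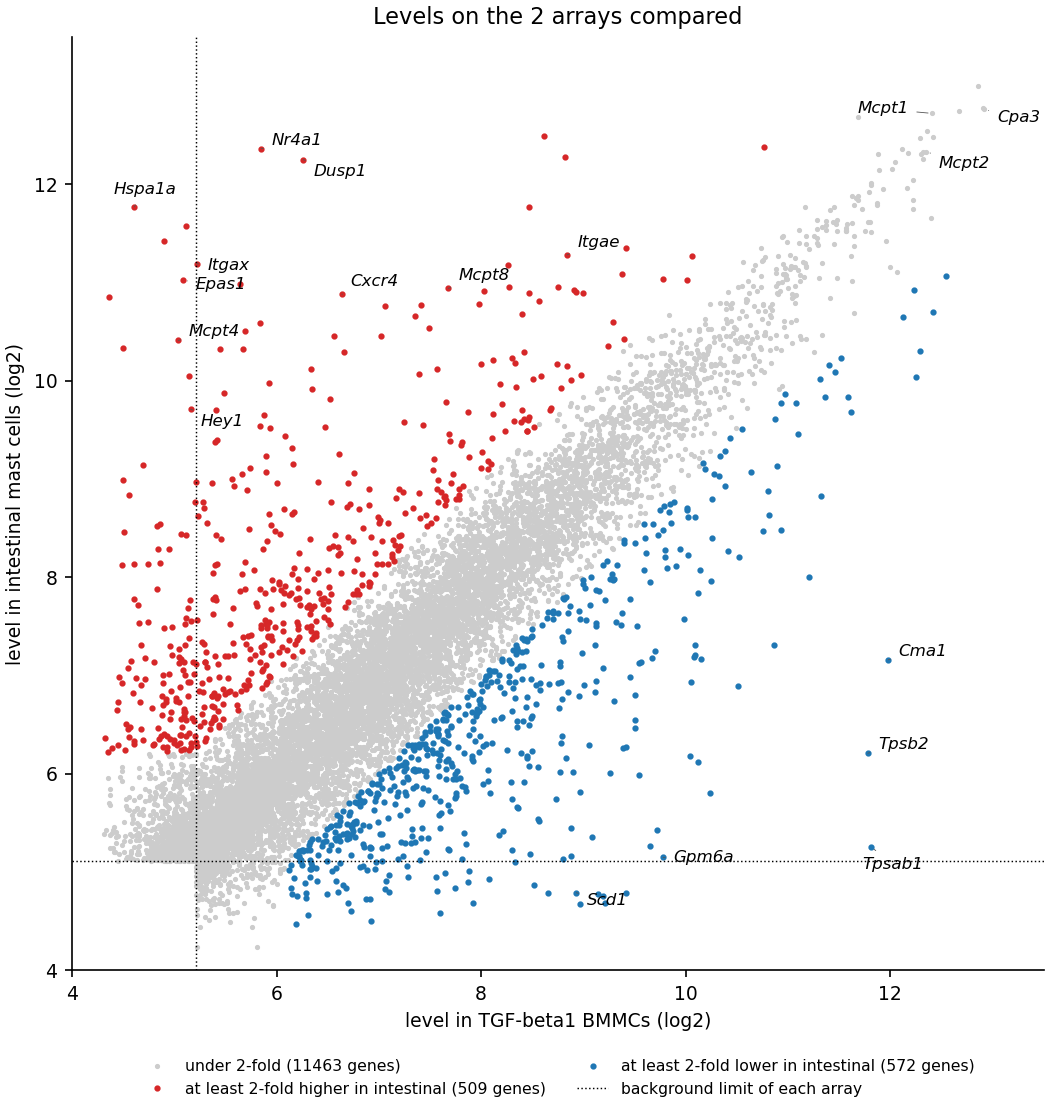
Level of each of the 12544 genes tested in TGF-beta1 BMMCs (x axis, log2) and in intestinal mast cells (y axis, log2), 1 point a gene, with the background limit of each array dotted. The 509 genes at least 2-fold higher in intestinal cells lie in red above the grey band and the 572 lower in blue under it, with Tpsab1, Tpsb2 and Cma1 at the lower right.

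The mast cell label was checked against its markers. Cpa3, the granule carboxypeptidase, read 12.92 with TGF-beta1 and 12.76 in intestinal cells, near the top of both arrays, where saturation could hide a difference. Kit read 12.22 and 11.75, Fcer1a 12.40 and 11.66, and Ms4a2, the beta chain of the IgE receptor, 10.67 and 9.98, all under a 2-fold difference. The lineage factors Gata2 (10.48 and 10.41) and Mitf (8.26 and 8.29) were nearly level. Of the other markers fixed for mast cells, Hdc read 5.68 and 6.90 (2.33-fold higher). Cma1 read 11.98 and 7.16 (28.2-fold lower) and Tpsb2 11.78 and 6.21 (47.7-fold lower), so the markers did not all read alike. Markers of several other cell types were also more often above the limit in the tissue sample. Over all 22180 genes, 11251 were above it with TGF-beta1 and 12134 in intestinal cells. Of 23 T cell and innate lymphoid markers, 7 were above the limit with TGF-beta1 and 19 in intestinal cells, beside 12 in control and 11 with Dll1. Their mean level was 5.29 with TGF-beta1 and 6.92 in intestinal cells. Among 35 markers of intestinal epithelium 6 and 23 were above the limit, with means of 5.15 and 5.89, and 7 were called higher and none lower. Muc2 (5.10 and 7.14) and Tff3 (4.88 and 6.60) of goblet cells, Pigr (4.96 and 7.30), Fabp1 (4.45 and 6.73) and Lgals4 (5.67 and 7.39) were among the 7, while Epcam, Vil1 and Krt19 were below the limit on both arrays. Of 23 macrophage and dendritic cell markers 12 and 18 were above the limit, with means of 5.54 and 6.26. The complement genes C1qa (5.31 and 7.24) and C1qb (4.98 and 7.21) and the growth factor receptor Csf1r (5.12 and 6.55), all genes of macrophages, were called higher, and Adgre1 (5.76 and 6.21), Cd68 (6.49 and 6.50) and Lyz2 (5.83 and 5.84) were not. Cd209a of the same list was 7.74-fold lower (9.50 and 6.55), although its other probe set gave a difference of 0.64. Of 14 B and plasma cell markers 1 and 7 were above the limit, with means of 4.82 and 5.19. Stromal and endothelial markers were above the limit for 10 of 22 members on each array. Neutrophil and promyelocyte markers were above it for 6 of 16 on each, and erythroid and megakaryocyte markers for 6 of 11. For enteric nerve and glia markers it was 1 and 2 of 11. The part of such cells in the differences below was not tested, and in bulk RNA fewer cells of a type and less RNA per cell cannot be told apart.

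Some granule proteases read alike in the TGF-beta1 culture and the tissue cell and others differed widely. Of 12 chymases and related serine proteases of the granule, 7 were at least 2-fold higher in intestinal cells and 1 was lower, with a median difference of 2.07 against 0.00 over all genes tested. Mcpt1 read 12.41 with TGF-beta1 and 12.72 in intestinal cells, and Mcpt2 read 12.35 and 12.33. Control cells had them at 4.82 and 5.75 and the Dll1 culture at 12.46 and 11.74, so both cultures with an added signal read high. These levels are near the top of the arrays, where saturation could hide a difference between the culture and the tissue. Mcpt4, the chymase usually assigned to connective tissue mast cells, was below the limit with TGF-beta1 (5.04) and read 10.41 in intestinal cells, at least 36.7-fold higher. Mcpt8 read 7.68 and 10.94 (9.59-fold), and the cathepsin G gene Ctsg 5.93 and 8.64 (6.54-fold). Mcpt8 also stands in the list of basophil markers, of which 3 of 13 were higher and 1 lower. Ctsg was the 1 higher member of 16 neutrophil and promyelocyte markers, of which none was lower. The part of such cells was not tested. Gzma, a granzyme that T cells also express, was below the limit with TGF-beta1 (4.50) and read 10.33, at least 34.7-fold higher, and Gzmc read 4.49 and 8.12. Mcpt9 stood at 4.55 and 7.08 (at least 3.66-fold) and the transcribed pseudogene Mcpt-ps1 at 10.77 and 12.38 (3.04-fold). Apart from Gzma, these genes lie in 1 cluster of related family members on chromosome 14, and probes can be shared between them. Gzmb, a granzyme of the same cluster, read 11.17 and 11.77 and was not called.

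The start of Mcpt4 is shown because this gene had the largest bound of the chymases. The 250 bases before its start in the RefSeq annotation of GRCm38.p6 lie at chr14:56062311-56062560 on the minus strand and are printed 5′ to 3′, with the single match to TGGGAA, the core that the Notch partner RBPJ binds, in capitals and read here on the opposite strand.
Mcpt4: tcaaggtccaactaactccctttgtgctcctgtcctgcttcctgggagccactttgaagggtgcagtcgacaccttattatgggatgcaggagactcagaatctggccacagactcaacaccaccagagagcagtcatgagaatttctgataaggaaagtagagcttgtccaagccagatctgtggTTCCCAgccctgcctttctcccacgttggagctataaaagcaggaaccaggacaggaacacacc
The match lay at -64 from the start. On either strand TGGGAA was found in 23.4% of 9859 promoters of genes tested, and in 25.2% of those of the higher genes, so it is common in windows of this length.

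Cma1 and the tryptases ran the other way, and of 5 tryptase and carboxypeptidase genes 2 were lower and none higher. Cma1 encodes mast cell protease 5, a chymase with elastase activity in mice, and read 11.98 with TGF-beta1 and 7.16 in intestinal cells, 28.2-fold lower. The tryptase gene Tpsb2 read 11.78 and 6.21 (47.7-fold lower) and Tpsab1 read 11.81 and 5.26, just above the limit (93.9-fold lower). These were the 3 lowest differences among the genes measured above background on both arrays and open to naming. The 2 tryptases are close paralogs whose probes may cross-hybridize. Tpsab1 also differed among the cultures, at 8.25 in control and 10.05 with Dll1, so the TGF-beta1 culture stood farthest of the 3 cultures from the tissue level for this gene. Cma1 read 12.12 in control and 11.37 with Dll1, and Tpsb2 11.55 and 11.83. None of the cultures came within 4 log2 units of the intestinal level for Cma1 or Tpsb2.

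**Figure D2:**
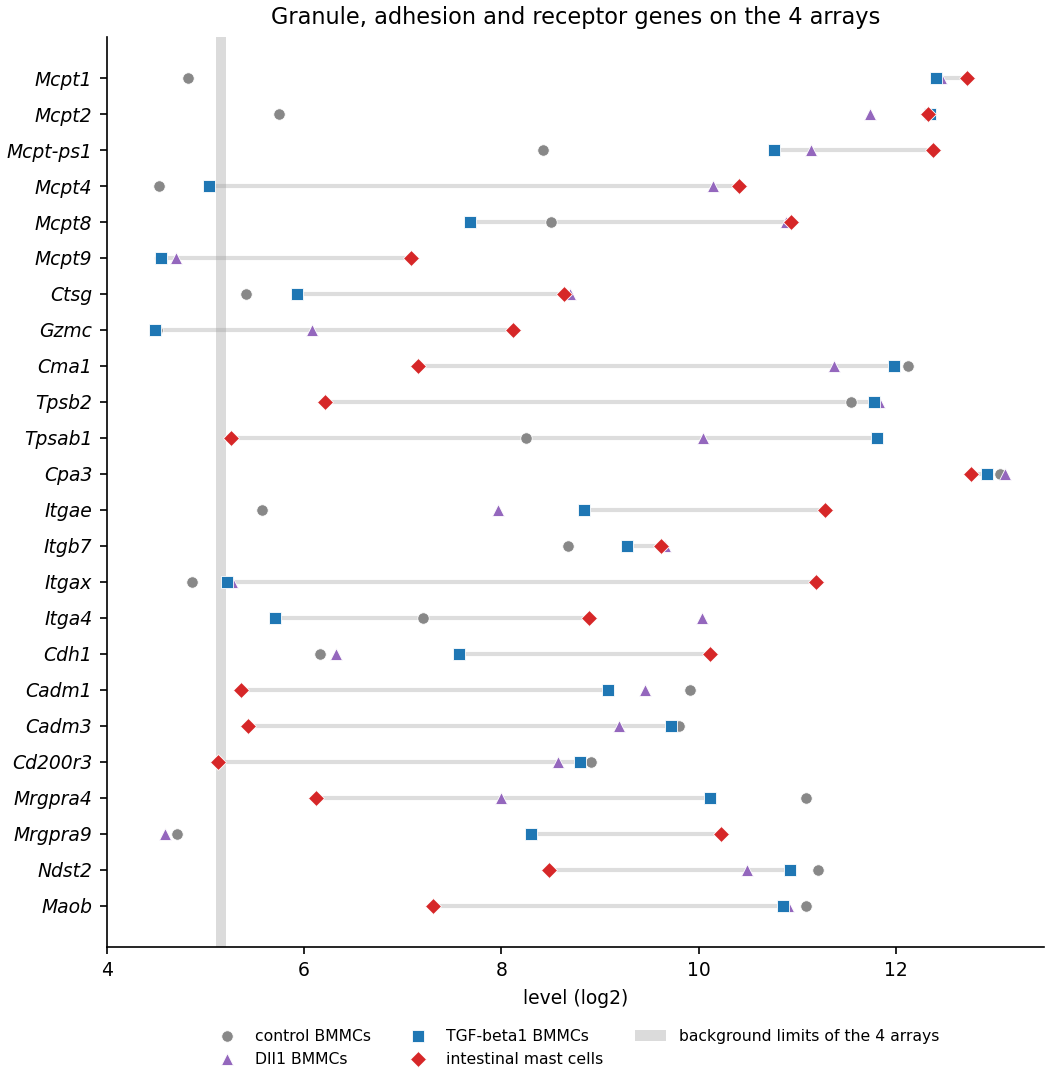
Level (x axis, log2) of 24 granule, adhesion and receptor genes on the 4 arrays, 1 symbol an array, with a grey line joining the TGF-beta1 and intestinal values and a grey band over the 4 background limits. Squares and diamonds coincide for Mcpt2 (12.35 and 12.33) and lie far apart for Mcpt4, Itgax and Tpsab1, the last in the opposite direction.

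Genes for other mast cell mediators differed in both directions, beside 4.06% higher and 4.56% lower over all genes tested. Of 11 genes of histamine and serotonin handling, 1 was higher and 4 were lower. Hdc, which makes histamine, read 5.68 with TGF-beta1 and 6.90 in intestinal cells (2.33-fold higher). Tph1, the rate-limiting enzyme of serotonin synthesis, read 12.23 and 10.92 (2.48-fold lower), Ddc, the next enzyme of that path, 7.31 and 5.30 (4.04-fold lower), and the vesicle monoamine transporter Slc18a2 11.36 and 9.83 (2.88-fold lower). Maob, a monoamine oxidase, read 10.86 and 7.31 (11.7-fold lower). Of 15 genes of prostaglandin and leukotriene synthesis, 2 were higher and 2 lower. Ptgs2, the inducible cyclooxygenase, was below the limit with TGF-beta1 (4.51) and read 8.46 in tissue cells, at least 9.49-fold higher. Tbxas1, thromboxane synthase, was 5.30-fold lower (9.98 and 7.58), and Alox5, which starts leukotriene synthesis, 2.76-fold lower (12.54 and 11.07), although its other probe set gave a difference of -0.76. In the heparin and chondroitin sulfate pathway 3 of 19 genes were higher and 2 lower. Ndst2, the sulfotransferase needed for mast cell heparin, was 5.47-fold lower (10.93 and 8.48), while Xylt1, which starts the sugar chain, was 3.43-fold higher (6.55 and 8.32). Srgn, the core protein of granule proteoglycan, read 11.57 and 11.53.

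Among receptors and signalling genes most members were not called, and those called were more often lower than higher in 4 lists. Over all genes tested 4.06% were higher and 4.56% lower. Of 20 inhibitory surface receptors, 7 were lower and 1 was higher, and their median difference was -0.32. Cd200r3 read 8.80 with TGF-beta1 and 5.13 in intestinal cells (12.7-fold lower) and Cd200r4 read 8.30 and 5.23 (8.41-fold lower). Unlike the rest of the list, these members of the CD200 receptor family are known as activating receptors. The inhibitory receptors Pirb (9.42 and 6.27, 8.83-fold), Cd200r1 (7.68 and 5.24, 5.41-fold) and Lilrb4a (12.29 and 10.30, 3.97-fold) were lower too. Of 22 genes of IgE receptor signalling, 5 were lower and 1 was higher. The lower ones were Pik3cd, a PI3-kinase catalytic subunit (4.21-fold), Gab2, an adaptor (3.26-fold), Prkcd (2.47-fold), Plcg1 (2.46-fold) and Lat2 (2.40-fold). The kinase Fyn was at least 3.50-fold higher. Of 14 lineage receptors, 2 were higher and 4 were lower, among the latter the shared beta chains of the interleukin-3 receptor, Csf2rb2 (12.12 and 10.65, 2.76-fold) and Csf2rb (10.43 and 9.42, 2.01-fold), which are paralogs. Il9r, the receptor of the mast cell growth factor interleukin-9, was 2.62-fold higher (7.26 and 8.65), and Ifngr1, an interferon-gamma receptor chain, 2.11-fold higher (6.84 and 7.92). Of 18 lineage factors, 2 were higher and 2 were lower, with a median difference of 0.02. Meis2 was at least 9.32-fold lower (8.33 and 5.10) and Gata1 2.52-fold lower (7.96 and 6.62). Hes1 was 3.16-fold higher (5.85 and 7.51) and Lmo4 2.02-fold higher (7.78 and 8.80). Of 11 surface receptors of connective tissue mast cells only 3 were above the limit on either array. Mrgpra4 was 16.1-fold lower in the tissue (10.12 and 6.12), Mrgprb13 at least 3.08-fold lower, and Mrgpra9 3.81-fold higher (8.30 and 10.23). Mrgpra9 was below the limit in control (4.71) and Dll1 (4.59) cells, so it read high in the TGF-beta1 and intestinal samples alone. Mrgprb2, the receptor for peptide secretagogues on connective tissue mast cells, was below the limit on both arrays compared.

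Integrins and residence genes held some of the largest gaps. Of 20 integrin chains, 6 were higher in intestinal cells and 3 were lower. Itgae, the alpha chain that with Itgb7 binds epithelial E-cadherin, read 8.84 with TGF-beta1 and 11.28 in tissue cells, 5.43-fold higher, while Itgb7 read 9.27 and 9.62. Control cells had Itgae at 5.57, so the TGF-beta1 culture lay between the control and the tissue levels. Itgax, an alpha chain best known from dendritic cells, read 5.22 and 11.19, a 62.9-fold difference, and was at 4.86 and 5.27 in the control and Dll1 cultures. Itga4, which pairs with Itgb7 in homing to the gut, read 5.71 and 8.89 (9.06-fold higher), with 7.21 in control and 10.04 with Dll1. Itgam was at least 3.94-fold and Itga9 3.17-fold higher, while Itga2b was 2.67-fold lower. Itgax and Itgam belong to the macrophage and dendritic cell list, of which 6 of 23 members were higher and 1 lower, and the part of such cells was not tested. E-cadherin itself, Cdh1, read 7.57 and 10.12 (5.84-fold), against 6.16 in control and 6.32 with Dll1. It also counts among the epithelial markers, and its other probe set differed by 1.10. Cadm1, which holds mast cells to nerves and fibroblasts (9.08 and 5.36, 13.2-fold), and its relative Cadm3 (9.72 and 5.43, 19.6-fold) were lower. Emb, a glycoprotein of the basigin family, was 10.5-fold higher by the probe set used and differed by 0.19 on the other.

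Of 23 genes of the programme known from tissue-resident lymphocytes, 12 were higher and none was lower, with a median of 1.19. Cd69, which retains lymphocytes in tissue, read 8.82 with TGF-beta1 and 12.28 in intestinal cells. The G protein regulators Rgs1 (7.41 and 10.77, 10.2-fold) and Rgs2 (8.26 and 11.18, 7.54-fold) and the aryl hydrocarbon receptor Ahr (4.52-fold) were also higher. The other probe set of Rgs2 gave a difference of 1.89. Cd69 (9.22 and 11.29), Rgs1 (7.52 and 9.25) and Rgs2 (8.76 and 9.87) also rose from control to the Dll1 culture. In that comparison 6 of the 23 were called higher and none lower. Of those 12 genes, Nr4a1, Nr4a2, Nr4a3 and Klf2 are also immediate early genes. Among 33 chemoattractant and lipid mediator receptors 5 were higher and 8 lower. Ccrl2, a chemerin-binding receptor of mast cells, read 5.45 and 10.32 (29.1-fold), and Cxcr4, the receptor for the chemokine CXCL12, 6.64 and 10.88 (18.9-fold). Ptger3, a prostaglandin E2 receptor of mast cells, was 7.95-fold lower (8.73 and 5.74), the complement receptor C3ar1 5.91-fold lower and the purinergic receptor P2ry1 5.30-fold lower. Outside the lists, Epas1, the hypoxia-inducible factor HIF-2alpha, was below the limit on the TGF-beta1 array (5.09) and read 11.02 in intestinal cells, at least 56.0-fold higher. It read 4.97 in control and 5.28 with Dll1, so none of the cultures approached the tissue level. Atp1b1, a sodium pump subunit, read 5.64 and 10.98 (40.6-fold), and Gpr65, an acid-sensing receptor, 5.67 and 10.32 (25.0-fold). In control and Dll1 cells Atp1b1 read 7.85 and 10.22, so the TGF-beta1 culture was the lowest and the Dll1 culture neared the tissue level. Gpr65 read 4.90 and 6.48 there.

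Several target genes of TGF-beta were higher in the tissue cell than in the treated culture. Of 28 such genes, 10 were at least 2-fold higher in intestinal cells and none was lower, and the median difference was 0.55. Ldlrad4, an inhibitor of the pathway, read 7.43 with TGF-beta1 and 9.55 in intestinal cells (4.35-fold). The SMAD co-repressors Skil (7.09 and 8.55) and Tgif1 (5.84 and 7.88) were 2.74-fold and 4.12-fold higher. Smad7, the inhibitory SMAD, read 8.01 and 9.27 (2.39-fold), and Pmepa1, another feedback inhibitor, was at least 3.18-fold higher (5.06 and 6.88). In control cells Ldlrad4 read 5.63, Skil 5.77 and Smad7 7.42, each below its level with TGF-beta1, whereas Pmepa1 read 5.45 in control. With Dll1, Smad7 read 8.01, the same as with TGF-beta1, while Ldlrad4 (5.86) and Skil (5.79) read close to control. Junb (9.84-fold) and Gadd45b (3.40-fold) also belong to the immediate early genes described below. Of the 25 receptors and SMADs themselves, 1 was higher and 2 were lower, beside 4.06% and 4.56% of all genes tested. These counts are near those shares, and nothing is read from them. Tgfbr1 read 9.03 and 8.10 and Tgfbr2 7.98 and 8.17.

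Notch genes gave 3 higher and 1 lower of 19 targets, with a median of 0.06, beside 4.06% and 4.56% of all genes tested. Hey1, a transcriptional repressor, was below the limit with TGF-beta1 (5.16) and read 9.71 in intestinal cells, at least 22.6-fold higher. Its paralog Hey2 ran the other way, from 7.65 to below the limit (4.99), at least 5.81-fold lower. Hes1 read 5.85 and 7.51 (3.16-fold higher) and Notch1 6.43 and 7.78 (2.55-fold higher), while Notch2 read 10.14 and 10.42. Lfng, a glycosyltransferase that modifies Notch receptors, was 5.17-fold lower (8.29 and 5.92). The Dll1 coculture, in which a Notch ligand was present, had Hey1 at 4.76 and Hes1 at 7.01.

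**Figure D3:**
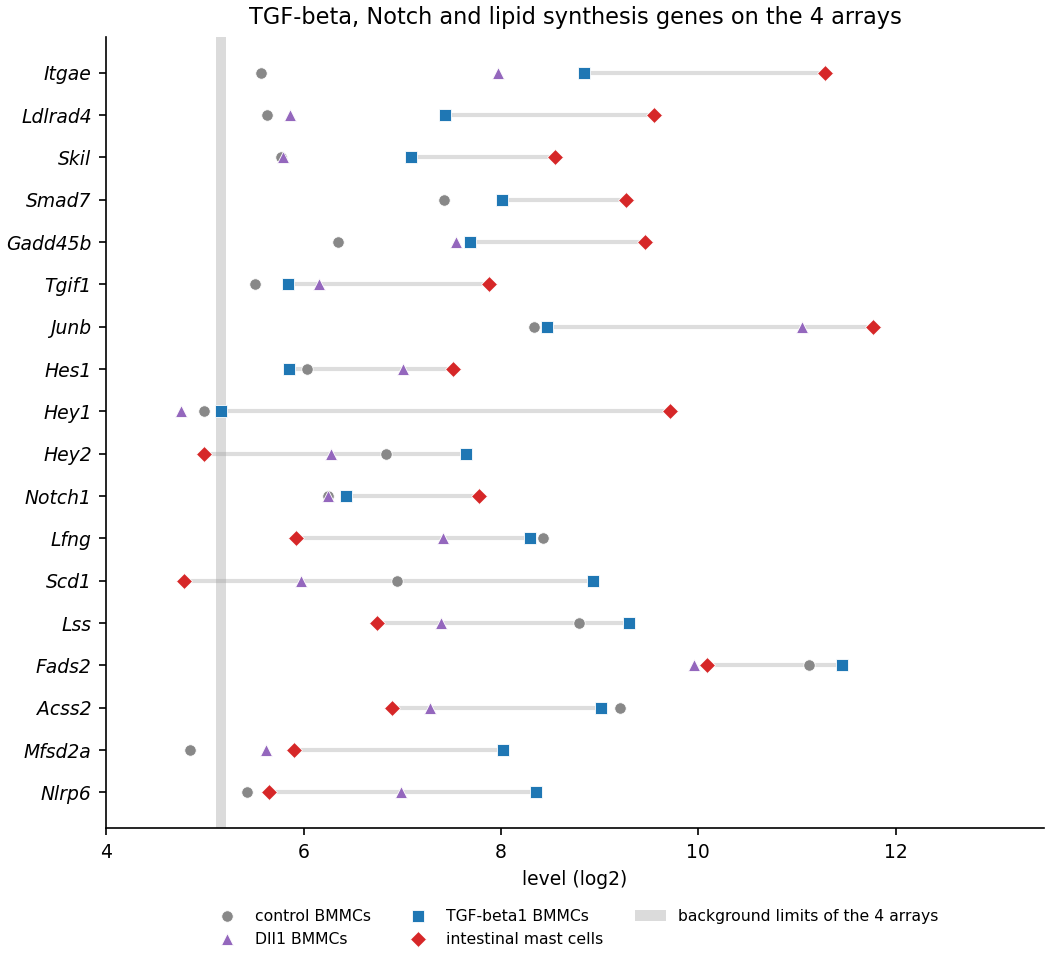
Level (x axis, log2) of 18 genes of the TGF-beta and Notch pathways, of lipid synthesis and of 1 NOD-like sensor on the 4 arrays, drawn as in the plot of granule genes. For Itgae, Ldlrad4, Skil and Smad7 the order is control, TGF-beta1, intestinal from left to right, and for Scd1, Mfsd2a and Nlrp6 the TGF-beta1 square stands to the right of every other array.

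Several lipid synthesis genes were lower in the tissue cell. Of 17 genes of fatty acid synthesis and desaturation 6 were lower, and of 19 cholesterol synthesis genes 4 were. No member of either list was higher, and the medians were -0.56 and -0.58. Scd1, the stearoyl-CoA desaturase, read 8.93 with TGF-beta1 and was below the limit in intestinal cells (4.79), at least 14.1-fold lower. Mfsd2a, a transporter of lipid with omega-3 fatty acids, was 4.37-fold lower (8.02 and 5.90), Acss2, which makes acetyl-CoA, 4.31-fold lower (9.01 and 6.90) and Fads2, a desaturase, 2.59-fold lower (11.46 and 10.09). In the sterol path Lss, lanosterol synthase, was 5.89-fold lower (9.30 and 6.74), Tm7sf2 2.82-fold, Sqle, the epoxidase, 2.46-fold and Fdps 2.14-fold lower. Scd1 (6.95) and Mfsd2a (4.85) were lower in control than in TGF-beta1 cells, whereas Acss2 (9.21) and Sqle (10.33) were not. Low levels were not particular to the tissue cell. With Dll1, 7 of the 19 cholesterol genes and 3 of the 17 fatty acid genes were lower than in control, and none was higher. The medians were -0.97 and -0.34, and 1.78% of all genes were lower in that comparison. Acss2 read 7.28 and Fads2 9.96 with Dll1. Like Scd1 and Mfsd2a, the inflammasome sensor Nlrp6 was highest with TGF-beta1, at 8.36. It read 5.43 in control, 6.99 with Dll1 and 5.65 in intestinal cells, 6.56-fold lower in the tissue than with TGF-beta1.

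Other groups had fewer members called, beside 4.06% higher and 4.56% lower over all genes tested. Counts near these shares are not read as results about a group. Of 29 genes of the exocytosis machinery 5 were lower, led by Mlph, a melanophilin that links Rab27 to myosin (3.55-fold), and none was higher. Of 30 lysosomal genes 4 were lower, led by Naglu (4.53-fold, 8.39 and 6.21), and 1 was higher. Aldoc, an aldolase, was 9.89-fold lower (8.48 and 5.18), the largest difference of 26 genes of glycolysis and hypoxia, of which 2 were lower and 1 was higher. None of 38 cell cycle and DNA replication genes and none of 49 oxidative phosphorylation genes was called in either direction, with medians of -0.15 and -0.01. At the low end of genes outside the lists, Gpm6a, a neuronal membrane glycoprotein, read 9.78 and 5.15 (24.7-fold lower), Arhgap20 9.65 and 5.27 (20.8-fold) and Gpr176, an orphan receptor, 10.04 and 6.18 (14.6-fold). Igfbp5, which binds insulin-like growth factors, was below the limit in the tissue (9.42 and 4.79), at least 19.8-fold lower, as were Cd55, a complement inhibitor (9.19 and 4.76, at least 16.9-fold), and the phosphatase Ptprg (9.21 and 4.69, at least 17.1-fold). Of the 63 called genes above the limit on the TGF-beta1 array and not on the intestinal one, 61 (96.8%) were above it in control cells and 56 (88.9%) in the Dll1 culture. Over all 410 genes of that kind the shares were 71.5% and 64.1%. The called genes were chosen for being well above the limit on the TGF-beta1 array, so nothing is read from the gap.

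Immediate early genes were the list with the most members called. These genes are switched on within minutes of a stimulus and also by cell isolation. Of 38 measured, 32 were higher in intestinal cells and none was lower, with a median difference of 2.96. Nr4a1, an orphan nuclear receptor, read 5.85 with TGF-beta1 and 12.36 in intestinal cells, 90.7-fold higher. Fosb was below the limit with TGF-beta1 (5.12) and read 11.57, at least 81.9-fold higher. Dusp1, a phosphatase of MAP kinases, read 6.26 and 12.25 (63.4-fold), Zfp36, which destabilises cytokine mRNA, 5.69 and 10.51 (28.4-fold), Egr1 5.84 and 10.59 (26.9-fold) and Btg2 5.41 and 9.70 (19.6-fold). The Dll1 culture, whose cells were bead-selected, also had Nr4a1 (10.51), Fosb (10.35), Dusp1 (11.35) and Egr1 (10.37) high, while control cells had them at 5.95, 5.81, 6.38 and 5.53. Both samples with these genes high had been through a selection step and the control and TGF-beta1 cultures had none named. The part of handling was not tested.

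Heat shock genes gave 7 higher and 2 lower of 22. Hspa1a and Hspa1b, near-identical copies of the inducible HSP70 gene whose probes cannot be fully told apart, were below the limit with TGF-beta1 (4.61 and 4.90) and read 11.77 and 11.42 in intestinal cells, at least 94.0-fold and 74.0-fold higher. Dnajb1, an HSP40 co-chaperone, was 6.38-fold higher (7.39 and 10.07) and Hsph1 4.84-fold higher (8.40 and 10.68). The Dll1 culture did not share this, with Hspa1a at 5.04, Hspa1b at 4.82 and Hsph1 at 8.12. In the unfolded protein response 4 of 25 genes were higher and none lower. They were Hspa5, the endoplasmic reticulum chaperone BiP (4.59-fold), Ddit3 (4.35-fold), Dnajb9 (3.66-fold) and Herpud1 (3.28-fold).

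The promoters of Nr4a1 and Hspa1a are shown because they lead these lists. Each is the 250 bases before the RefSeq start in GRCm38.p6, printed 5′ to 3′ in the gene's direction, Nr4a1 at chr15:101266596-101266845 on the plus strand and Hspa1a at chr17:34972157-34972406 on the minus strand. Capitals mark CGTCA, the short form of the cAMP response element, in Nr4a1 and GAANNTTC, a core of the heat shock element, in Hspa1a.
Nr4a1: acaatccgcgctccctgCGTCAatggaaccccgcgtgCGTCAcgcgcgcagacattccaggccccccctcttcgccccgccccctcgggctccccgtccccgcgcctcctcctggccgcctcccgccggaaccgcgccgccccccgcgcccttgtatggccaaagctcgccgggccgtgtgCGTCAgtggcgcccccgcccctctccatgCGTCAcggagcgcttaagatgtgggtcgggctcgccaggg
Hspa1a: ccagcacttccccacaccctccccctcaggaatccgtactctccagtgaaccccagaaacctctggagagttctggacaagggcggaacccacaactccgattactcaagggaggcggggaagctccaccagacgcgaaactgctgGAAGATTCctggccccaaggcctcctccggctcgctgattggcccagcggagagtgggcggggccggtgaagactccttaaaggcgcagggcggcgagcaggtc
Nr4a1 held 4 matches to CGTCA, at -233, -213, -69 and -40, and Hspa1a held 1 to GAANNTTC, at -104. Both motifs were searched on both strands. CGTCA, which lies within the full element TGACGTCA, was found in 18 of the 31 immediate early genes with a promoter entry, and in 9 of the 16 heat shock genes, against 29.7% of 9859 promoters of genes tested, 29.1% of those of the higher genes and 21.6% of those of the lower genes. GAANNTTC was found in 6 of 16 heat shock genes and 6.10% of all. Both motifs were chosen after these sequences had been seen, so their counts in these lists are a description and support nothing. The full element TGACGTCA was in 4 of the 31 immediate early genes, 2.91% of all promoters, 4.42% of the higher and 0.909% of the lower genes. The other motifs were TTCNNGAA, the other phase of the heat shock core (4 of 16 heat shock genes, 6.95% of all and 8.31% of the higher), GTCTAGAC, a SMAD element (0.274% and 0.260%), and GCGTG, the core bound by the aryl hydrocarbon receptor (47.9% and 48.1%).

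Several inflammatory genes were higher in intestinal cells as well. Of 26 NF-kappaB response genes 10 were higher and none was lower, and the list median was 0.65. The feedback inhibitors Tnfaip3 (5.49 and 9.87, 20.8-fold), Nfkbiz (5.88 and 9.65, 13.6-fold) and Nfkbia (7.35 and 10.66, 9.89-fold) were among its largest differences. Nfkbiz also belongs to the immediate early genes above, and the part of handling was not tested here either. Of 47 cytokines and chemokines 12 were higher and 3 lower. Ccl3 read 5.93 with TGF-beta1 and 9.98 in intestinal cells (16.6-fold), Tnf 6.34 and 10.12 (13.7-fold), Ccl4 5.84 and 9.54, Ccl5 7.02 and 10.46 (10.8-fold) and Il4 6.41 and 8.97 (5.90-fold). Il13 (6.42 and 7.31) and Il6 (8.69 and 8.51) were not called. In the class II antigen presentation list 5 of 12 genes were higher and 2 lower. H2-Ea was at least 13.8-fold higher (4.50 and 8.99), H2-DMb2 at least 6.34-fold (4.83 and 7.88) and H2-Ab1 6.14-fold (6.07 and 8.69). The Dll1 culture had H2-Ea at 9.05 and H2-Ab1 at 8.63. Lymphoid markers were higher for 8 of 23 genes. Cd7, a surface protein of T and NK cells, was at least 28.6-fold higher (5.14 and 10.05) and read 10.20 with Dll1, whereas Cd3g was at least 12.4-fold higher (4.56 and 8.84) and read 4.51 with Dll1. Cd3e was at least 5.00-fold higher (4.66 and 7.53), Cd3d read 4.82 and 5.79, and Cd2 was below the limit on both arrays.

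**Figure D4:**
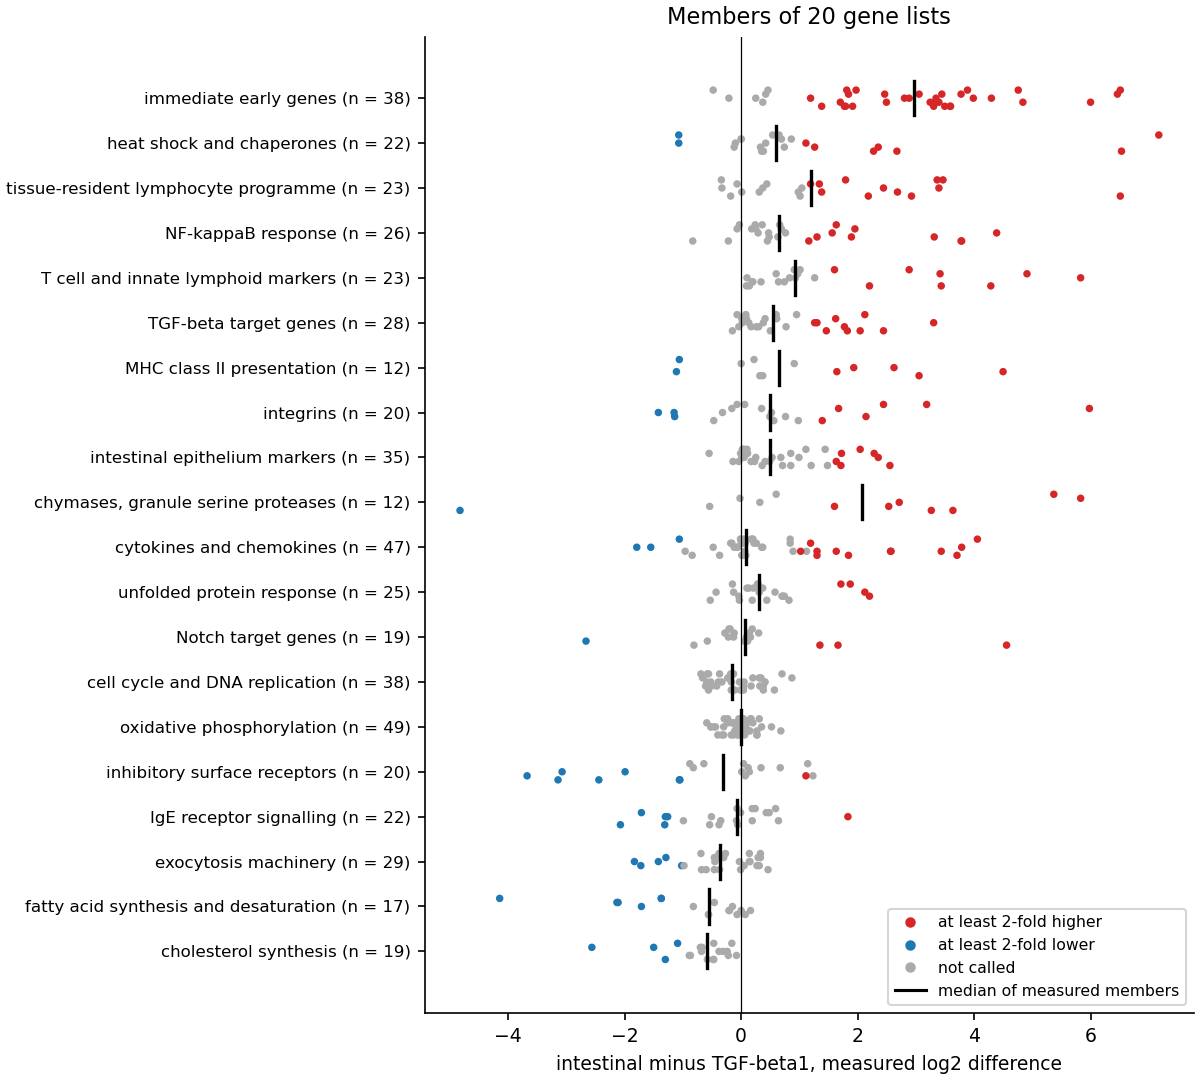
Measured difference, intestinal minus TGF-beta1 (x axis, log2), of each member of 20 of the 54 gene lists, 1 point a gene, with the number of measured members in parentheses and the list median as a black bar. The immediate early genes have their median at 2.96, the cholesterol synthesis genes at -0.58, and the oxidative phosphorylation genes lie close around 0.

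The Dll1 coculture minus the control shares no array with the comparison, so the genes called in both can be set side by side, although the Dll1 array may also hold RNA of the hamster feeder cells, which was not tested. It had 209 higher genes of 12756 tested (1.64%) and 227 lower (1.78%). Of the 509 genes higher in intestinal than TGF-beta1 cells, 105 (20.6%) were also higher with Dll1 than in control, which is 50.2% of the 209, and 1 was lower. Of the 572 lower genes, 99 (17.3%) were also lower with Dll1, 43.6% of the 227, and 7 were higher. Across the 10493 genes above the limit on all 4 arrays, the differences had a Pearson correlation of 0.47, as a description over genes, which are not independent. Mcpt4, Cd7, H2-Ea, Nr4a1, Dusp1 and Fosb were high in both, and 17 of the 38 immediate early genes were higher with Dll1 than in control. Itgax, Epas1, Hey1, Hspa1a and Hspa1b were higher in intestinal cells and not with Dll1. Of the 131 genes called higher that were above the limit in intestinal but not in TGF-beta1 cells, 74 (56.5%) were above it in the Dll1 culture and 40 (30.5%) in control. Over all 1293 genes of that kind the shares were 59.2% and 37.0%.

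**Figure D5:**
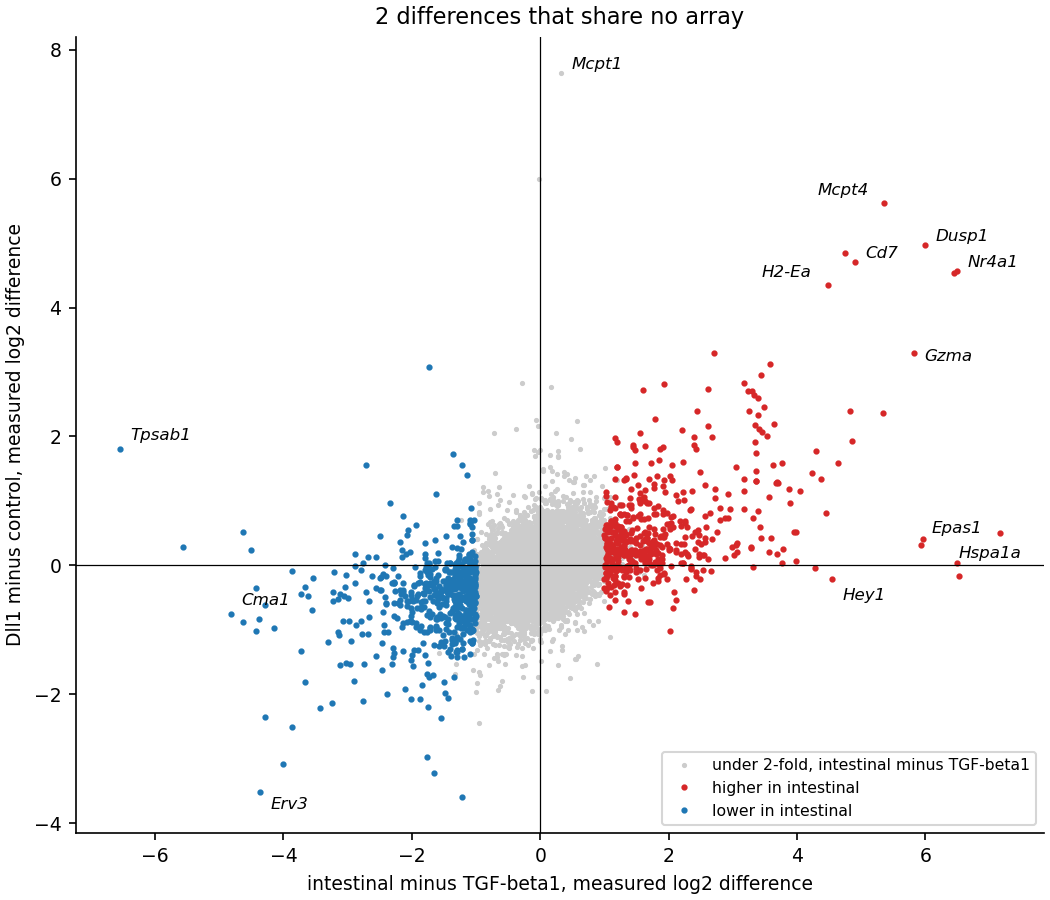
Measured differences of the 12544 genes tested, intestinal minus TGF-beta1 (x axis, log2) against Dll1 minus control (y axis, log2), 1 point a gene, coloured by the call on the x axis. Mcpt4, Cd7, Dusp1 and Nr4a1 lie at the upper right, Hspa1a, Epas1 and Hey1 at the right near the horizontal line, and Tpsab1 at the upper left.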

How the data were processed

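RNA of 4 mast cell samples was measured on whole-transcript arrays from 2 ng of RNA each, 1 array a sample, and 2 of them were compared. The deposited table holds the authors' log2 values of 33793 probe sets. How the probes were summarised and normalized, and on which build, is not given in the sources used here. When sorted, the arrays' values had a mean range of 0.06 and a largest range of 0.25 across the 4 arrays, and they were used without another normalization. Arrays have no read depth, and their number limits the precision.

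Of the probe sets, 23521 had 1 symbol in the platform annotation, 1814 had several and 8458 were not listed. The 1082 genes with more than 1 probe set were represented by their brightest probe set on average. The background limit, the 2-fold rule and the bounds are as stated above, and no p-value was computed. The rule was also tested on simulated data. Calculations used Python 3.11.15, pandas 2.3.3, numpy 2.4.6 and matplotlib 3.10.9.

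Named genes were the 14 highest and 14 lowest differences measured on both arrays, the 8 largest bounds each way, up to 6 called members of each of 54 gene lists with the largest differences, and 19 fixed genes, leaving out by symbol predicted genes, small RNAs and receptor and immunoglobulin segments. Not all of them are printed. Other genes were named after their values were seen, among them Mcpt9, Mcpt-ps1, Skil, Gzmb, Mrgprb2, Srgn, Il6, Il13 and the markers of other cells. The members, lists and rule were chosen with earlier results of these data known.

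Promoters came from the RefSeq table of GRCm38.p6, which matched 9859 of the 12544 genes tested by symbol. Of the 7 motifs, CGTCA and GAANNTTC were added after the sequences were seen.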

Additional observations from a re-analysis of the deposited data

Results flagged for a closer look

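Probe sets without a single gene symbol were not used in any comparison above. Of 10272 such probe sets, 3433 passed the background limit on 1 or both arrays, and 131 of these were at least 2-fold higher in intestinal than in TGF-beta1 cells while 98 were at least 2-fold lower. They are listed because they show signal outside the genes compared, and they are given no name here. Both counts are smaller shares of the 3433 than the 4.06% higher and 4.56% lower of all genes tested, so nothing is read from them.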

How the results depend on the processing

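With 1 array a group no array could be left out. No paired analysis was possible because the groups share a single replicate number. The counts of 509 higher and 572 lower genes stayed within 1.5 times under the 8 alternatives, which were array medians subtracted, quantile normalization repeated, a background limit at the 90th or 99th percentile or none, averaged probe sets, a linear offset of 16 subtracted, and the immediate early, heat shock and other-cell lists left out. They ranged from 411 to 705 higher (99th percentile and offset) and from 457 to 825 lower (the same settings), and with those lists left out they were 444 and 565. The share of higher among called genes lay between 44.0% and 49.4%. Of 209 called named genes, 190 stayed past 2-fold in the same direction under all 7 alternatives that apply to single genes, 19 fell short under at least 1 and none reversed. Among the 19 were the epithelial markers Fabp1 and Tff3 and also Hspb1, Tiparp, Slc7a11, Lag3, Csf1r, Mrgprb13, Epor and Rab3a. Apart from the fixed genes, the named genes were chosen for the size of their differences, so this stability was in part set in advance. The sizes were less stable than the calls. Subtracting the offset moved 20 of the 54 list medians and 87 of the 217 differences of named genes, and the 99th percentile limit moved 72 of the 217 by more than the gauge of technical spread. Levels near the limit compress differences, and Cpa3, Mcpt1 and Mcpt2 lie near the top of the scale.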

Other observations

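Some of the genes that differed lie side by side on the chromosomes, by gene order in the RefSeq table and over the genes tested. Mcpt9, Mcpt4, Mcpt8, Ctsg and Gzmc, 5 adjacent tested genes of the protease cluster on chromosome 14, were all higher in intestinal cells, as were 4 adjacent class II genes on chromosome 17, H2-Ab1, H2-Aa, H2-Eb1 and H2-Ea. Cd200r1, Cd200r4 and Cd200r3 with their neighbour Slc35a5 on chromosome 16 formed a run of 4 lower genes, and Entpd1, Ccnj, Zfp518a and Blnk on chromosome 19 another. Close family members can share probes, so such runs are not independent measurements.

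Of 37 interferon response genes, 5 were higher and 2 lower, beside 4.06% and 4.56% of all genes tested. Oasl1 read 5.38 with TGF-beta1 and 8.04 in intestinal cells (6.31-fold), and Isg15, a ubiquitin-like modifier, was at least 5.19-fold higher (5.12 and 7.59), while Ifitm3 was 4.43-fold lower (10.41 and 8.27). Among 20 genes of the glucocorticoid response 5 were higher and 1 lower. The largest of the 5 was Dusp1 (63.4-fold), which is also one of the immediate early genes above. Errfi1, an inhibitor of the EGF receptor, read 5.74 and 9.11 (10.3-fold), the decoy receptor Il1r2 5.87 and 8.29 (5.33-fold) and the clock gene Per1 6.61 and 9.25 (6.22-fold). Clec7a, the beta-glucan receptor Dectin-1, was 5.26-fold higher (5.38 and 7.78), and among 24 pattern sensors it was the 1 called higher against 3 lower. Pdgfrb, a growth factor receptor of stromal cells, was 7.61-fold higher (5.46 and 8.39), the 1 higher of 22 stromal and endothelial markers. In that list 1 was lower, and both counts are near the 4.06% and 4.56% of all genes tested.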
